A study of Homo sapiens with 6 samples.

Results

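Genes whose products carry proteins into the endoplasmic reticulum (ER) and onward to the Golgi were examined in the lung carcinoma cell line Calu-6 after treatment with an siRNA against the TERT Delta 2-4 splice variant. The members were the 54 genes, of 10072 in the count table, whose symbols belong to the signal recognition particle (SRP), the SEC61, SEC62 and SEC63 translocon, the translocon-associated protein complex (TRAP, SSR1 to SSR4), the signal peptidase (SEC11 and SPCS genes), 5 subunits of the oligosaccharyltransferase, the p24 (TMED) cargo receptors, the SEC13, SEC23 and SEC24 subunits of the COPII coat with the SEC22 SNAREs, the COPI coat (COP genes) and the ARF GTPases. They held 177 of 21472 transcript models. Both groups were wild-type Calu-6 cells by their labels, transfected at 10 nM for 48 h with a non-silencing siRNA (siControl, 3 libraries) or with an siRNA against the junction of TERT exons 1 and 5 (siDelta2-4, 3 libraries). The count columns also carried the word that the study used for its stable line with an empty vector, so whether these cells held that vector is uncertain. TERT has no value among the counts used here, so the knockdown was not analysed here.

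Secreted and membrane proteins begin at the ER. SRP binds a signal sequence as it leaves the ribosome and docks the ribosome at the SEC61 channel, where TRAP assists, the signal peptidase removes the signal and the oligosaccharyltransferase adds N-linked glycans. Folded cargo then leaves in COPII vesicles with the help of p24 receptors, while COPI vesicles, whose coat is recruited by ARF GTPases, return receptors and escaped residents. When unfolded proteins accumulate, the transcription factors XBP1 and ATF6 are known to raise many genes of this route by binding promoter elements such as TGACGTGG.

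Promoter sequences of 48 of the 54 members were found among RefSeq promoters (GRCh38.p14, 250 bases before to 50 bases after a start, 35116 entries). The 8 letters TGACGTGG, read on both strands, were present in 10 of the 62 members' entries (16.1%) and in 0.729% of all entries. By gene they were present in 9 of 48 members, namely SRP19, SSR3, SSR4, SEC62, SEC23A, ARF1, COPA, COPB1 and COPB2. A match is a description of the letters and shows neither binding nor a response. The stretches of 5 of these 9 are shown because the choice of members did not use the letters, which most members lack. They read 5′ to 3′ on the gene's strand, capitals mark the match, and all 5 lie before the RefSeq start. SRP19 is at chr5:112861164-112861193 (plus strand), SSR3 at chr3:156554148-156554177 (minus), SSR4 at chrX:153794528-153794557 (plus), ARF1 at chr1:228082681-228082707 (plus) and COPB1 at chr11:14499841-14499870 (minus). By Gencode 44, which has longer transcripts for some of these genes, the SSR3, SSR4 and COPB1 stretches lie within the span of the gene, the last 6 bases of the SRP19 stretch do, and the ARF1 stretch does not.
SRP19: aagtcttcatgCCACGTCAgagactagaga
SSR3: tctgataacagCCACGTCAgcaaggaaact
SSR4: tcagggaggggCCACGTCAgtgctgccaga
ARF1: cccggaggcgcTGACGTGGccgccgtc
COPB1: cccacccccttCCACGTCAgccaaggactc

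Counts of long cDNA reads per library totalled 1037468 to 1106413 in siControl and 1070009 to 1309241 in siDelta2-4, and the members took 32274 counts in all, 0.476% of the total. Libraries are named by the number in their column, which ties no library to a label or to a library of the other group. The study calls the libraries of a group biological replicates, the labels do not say how they were cultured, and p-values measure the spread between these libraries. Within each group, pairs of libraries differed by 1.51 to 3.70 times the sampling noise of their counts (chi-square per degree of freedom over genes), so none was taken for a copy of another. The measure cannot tell separate cultures from separate preparations of the same RNA. The keratins KRT8 (114 to 171 counts) and KRT18 (162 to 231) and the mesenchymal VIM (130 to 206) and SPARC (39 to 72) were counted in every library, KRT7 was low (3 to 11), EPCAM had 1 to 3 counts, and KRT19 and FN1 had at most 1. The epithelial CDH1, the lung-lineage markers (NKX2-1, SFTPB, SFTPC, SCGB1A1) and the blood markers PTPRC and HBB had no row, and the blood marker CD74 had at most 1 count in a library. In bulk RNA, fewer cells of a kind and less RNA per cell cannot be told apart.

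Of the 54 members, 34 had enough counts to be tested and 20 did not. The tested members had 62 counts or more over the 6 libraries and the untested ones 51 or fewer, 9 of them under 10. With edgeR's quasi-likelihood test across 3888 genes and an adjusted p under 0.1, 6 members were higher in siDelta2-4 (SRP19, TMED10, SEC13, SSR2, SEC11A and DDOST) and 0 were lower. That is 17.6% of the tested members, where 7.00% of all tested genes were called higher and 5.97% lower. At an unadjusted p under 0.05 the test counted 10 members (29.4%), all higher, and 0 lower, where 23.1% of all genes passed that limit in either direction. Among the tested members 24 (70.6%) had a log2 fold change above 0, against 53.9% of all genes. The median log2 fold change was 0.17, against 0.027 over all genes. Without a count filter, which lets genes of low counts in, the order reversed, at 0.15 against 0.19 over 10072 genes. With the DESeq2 Wald test it was 0.11 against 0.16 over 10070 genes. In CPM (counts scaled to a common library total, after TMM adjustment) the groups did not overlap for 9 members higher in siDelta2-4 and 2 lower, that is 26.5% of tested members for the higher ones, where 14.1% of all genes separated upward and 11.9% downward.

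The calls were spread over the roles. SRP, TRAP, the signal peptidase, the oligosaccharyltransferase, the p24 receptors and the COPII and SNARE group had 1 called member each, and the translocon, COPI and ARF groups had 0 by edgeR's test and 0 at an unadjusted p under 0.05. The medians of log2 fold change by role ran from -0.027 for the signal peptidase and 0.069 for the translocon to 0.33 for SRP and 0.38 for the p24 receptors.

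**Figure D1:**
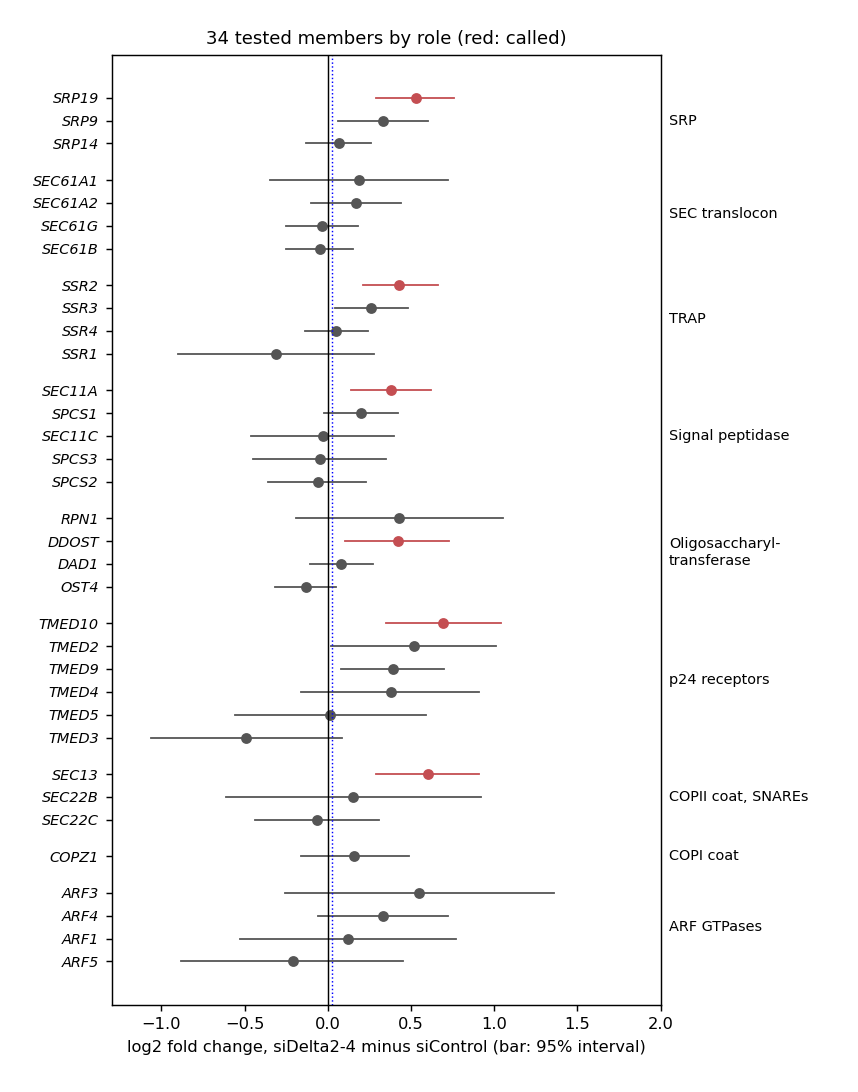
Log2 fold changes (siDelta2-4 minus siControl) of the 34 tested members, grouped by role, with 95% intervals from edgeR's fit. Red points are the 6 members called higher, and the dotted blue line is the median of all tested genes, 0.027. The intervals of SEC61B, SEC61G, SSR4 and SRP14 all include 0, while those of the red points lie above it.

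SRP19, which binds the RNA of the SRP and helps SRP54 to assemble on it, had CPM of 128, 124 and 109 in siControl 1 to 3 and of 170, 177 and 172 in siDelta2-4 1 to 3. Every siDelta2-4 library was above every siControl library, and the 3 siDelta2-4 values lay within a narrow band. The log2 fold change was 0.53 ± 0.11 (SE, n = 3 per group, adjusted p = 0.00455). SRP19 (ENSG00000153037.15) lies on the plus strand at chr5:112861188-112898371 in Gencode 44. Its values are uncertain, since 74.9% of its counts were in an unannotated model close in shape to that of REEP5 on the opposite strand. SRP9, which with SRP14 forms the part of the particle that pauses translation, had a log2 fold change of 0.33 ± 0.13 that missed the threshold (adjusted p = 0.119). SRP14, the most counted SRP member, had CPM of 466, 424 and 378 in siControl and 439, 436 and 454 in siDelta2-4, which overlapped (log2 fold change 0.069, 95% interval -0.13 to 0.26). SRP9 counts (923 in all) are uncertain to a small degree, since a processed copy, SRP9P1, had 9 counts of its own. SRP54, SRP68 and SRP72 had 36, 2 and 19 counts and were not tested. As a share of raw counts, before TMM adjustment, the SRP members made up 0.0672, 0.0638 and 0.0634% of siControl libraries. In siDelta2-4 libraries the share was 0.0760, 0.0832 and 0.0768%, without overlap.

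No member of the translocon passed the test. SEC61B, the small beta subunit of the channel and its most counted member, had CPM of 418, 399 and 376 in siControl and 422, 388 and 345 in siDelta2-4. The groups overlapped, and the 95% interval of the log2 fold change was -0.25 to 0.15. For SEC61G, the gamma subunit, the interval was -0.25 to 0.18. SEC61A1, the main pore-forming alpha subunit, had only 139 counts (log2 fold change 0.19, interval -0.35 to 0.72), and SEC61A2, its paralogue, had 771 (0.17, interval -0.10 to 0.44). SEC62 and SEC63, which serve post-translational import, had 24 and 2 counts.

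Of the 4 TRAP subunits, SSR2 (TRAP beta) was called higher. Its CPM was 189, 171 and 225 in siControl and 265, 262 and 263 in siDelta2-4. All 3 siDelta2-4 libraries were above siControl 3, which was the highest of its group. The log2 fold change was 0.43 ± 0.11 (SE, n = 3 per group, adjusted p = 0.0146). SSR2 (ENSG00000163479.14) is on the minus strand at chr1:156009048-156020951. SSR3 (TRAP gamma) did not overlap between groups either, at 227, 195 and 214 CPM against 262, 236 and 264, but missed the threshold (0.26 ± 0.11, adjusted p = 0.128). SSR4 (TRAP delta), the most counted of all members, had 607, 630 and 536 CPM against 607, 566 and 662, with overlap and an interval of -0.14 to 0.24. SSR1 (TRAP alpha) had a log2 fold change of -0.31 ± 0.29. The TRAP share of raw counts, before TMM adjustment, was 0.0963, 0.0980 and 0.101% in siControl. In siDelta2-4 it was 0.115, 0.112 and 0.120%.

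Among signal peptidase genes, SEC11A, 1 of the alternative catalytic subunits, was called. Its CPM was 140, 162 and 186 in siControl and 212, 196 and 229 in siDelta2-4. The groups stood apart, with siControl 3 close below siDelta2-4 2. The log2 fold change was 0.38 ± 0.12 (SE, n = 3 per group, adjusted p = 0.0427). SEC11A (ENSG00000140612.14) is on the minus strand at chr15:84669538-84716460. SEC11C, the other catalytic subunit, had a log2 fold change of -0.027 (interval -0.46 to 0.40). SPCS1, the most counted member of the complex, had 214, 216 and 192 CPM against 245, 257 and 213 (0.20, adjusted p = 0.272). SPCS2 and SPCS3 had log2 fold changes of -0.062 and -0.048, and SPCS2 (633 counts) is uncertain, since its processed copy SPCS2P4 had 51 counts.

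The oligosaccharyltransferase contained the call closest to the threshold. DDOST, a noncatalytic subunit of the complex, had CPM of 53.6, 64.2 and 58.4 in siControl and 74.9, 85.3 and 75.2 in siDelta2-4. The groups did not overlap. The log2 fold change was 0.42 ± 0.15 (SE, n = 3 per group, adjusted p = 0.0945). DDOST (ENSG00000244038.11) is on the minus strand at chr1:20651767-20661544. DAD1, another small subunit, separated upward by a small margin, at 382, 366 and 362 CPM against 403, 386 and 386, without passing the test (0.080, adjusted p = 0.645). OST4, the smallest subunit and the most counted of the complex, separated downward at 648, 557 and 556 CPM against 525, 531 and 550, again without passing (-0.13, adjusted p = 0.394). RPN1 had 115 counts and a log2 fold change of 0.43 ± 0.30, and RPN2 had 38 counts and was not tested.

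TMED10, a p24 receptor that cycles between the ER and the Golgi, had the largest log2 fold change of the tested members. Its CPM was 49.7, 40.3 and 57.5 in siControl and 89.0, 73.9 and 76.7 in siDelta2-4. The lowest siDelta2-4 library was well above the highest siControl library. The log2 fold change was 0.69 ± 0.17 (SE, n = 3 per group, adjusted p = 0.00983). TMED10 (ENSG00000170348.9) is on the minus strand at chr14:75131469-75176612. TMED9 and TMED2, which form complexes with TMED10, pointed the same way without passing. TMED9 had 77, 57.5 and 79.5 CPM against 99.3, 98.3 and 83.6 (0.39 ± 0.15, adjusted p = 0.113), and the groups did not overlap. TMED2 had 16.6, 20.1 and 30.7 CPM against 33.7, 28.4 and 34.5 (0.52 ± 0.24, adjusted p = 0.192), where siControl 3 lay above siDelta2-4 2. TMED3 separated downward, at 19.5, 19.2 and 21.1 CPM against 13.1, 16.3 and 13, from 113 counts in all (-0.49 ± 0.28, adjusted p = 0.300). TMED4 and TMED5 overlapped between groups (log2 fold changes 0.38 and 0.012), and TMED1 and TMED7 had 38 and 2 counts.

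SEC13, a subunit of the outer COPII coat that also belongs to the nuclear pore, was called in the COPII group. Its CPM was 79.0, 57.5 and 96.7 in siControl and 108, 117 and 128 in siDelta2-4. The groups did not overlap, and siControl 2 was the lowest library. The log2 fold change was 0.60 ± 0.15 (SE, n = 3 per group, adjusted p = 0.0140). SEC13 (ENSG00000157020.18) is on the minus strand at chr3:10293131-10321112. The inner-coat genes SEC23A, SEC23B and SEC24D had 6, 3 and 1 counts. Of the SNAREs, SEC22B and SEC22C overlapped between groups (log2 fold changes 0.15 and -0.064), and SEC22A had 42 counts.

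Of the COPI coat only the small zeta subunit COPZ1 was tested, at 73.1, 63.3 and 64.2 CPM in siControl and 60.9, 79.6 and 82.9 in siDelta2-4. These overlapped (0.16, interval -0.16 to 0.49). COPE had 51 counts, COPA 11, COPB2 6, COPG2 2 and COPB1 1, so changes in these other coat subunits could not be tested at this depth. The ARF GTPases were led by ARF4 with 40.9, 33.6 and 43.1 CPM against 42.1, 57.7 and 47.6, with overlap (0.33 ± 0.19, adjusted p = 0.306). ARF1, ARF3 and ARF5 had log2 fold changes of 0.12, 0.55 and -0.21, with SE of 0.32 to 0.40, and ARF6 had 45 counts. The remaining members, the noncoding SRP14-DT and SRP54-AS1, had 29 and 15 counts.

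**Figure D2:**
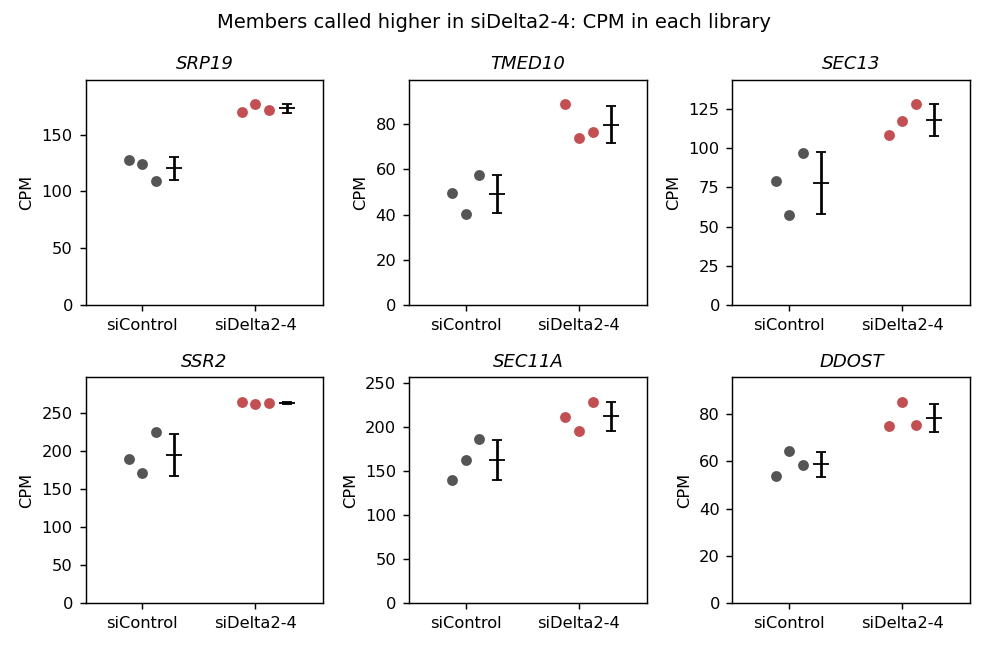
CPM of the 6 called members in each library (points), with the mean and SD of each group (bars, n = 3). In all 6 panels the siDelta2-4 points lie above the siControl points, with the smallest gap for SEC11A, from 186 to 196 CPM.

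Together the members took 0.441, 0.435 and 0.451% of the counts of siControl 1 to 3 and 0.50, 0.516 and 0.502% of those of siDelta2-4 1 to 3. The mean was 0.442% ± 0.00827 (SD, n = 3) against 0.506% ± 0.00870. All siDelta2-4 libraries were above all siControl libraries, and no test was made, since the members were chosen with results known. The shares of the p24 receptors (0.0200% to 0.0270% on average), of the signal peptidase (0.0526% to 0.0625%), of the COPII and SNARE group (0.0139% to 0.0187%) and, narrowly, of the oligosaccharyltransferase (0.10% to 0.104%) also did not overlap between groups. The translocon share (0.0770% to 0.0800%), and those of the COPI and ARF genes, overlapped. All these shares are of raw library totals, without the TMM factors used for CPM. The factors were lowest in siControl 1 and 2 (0.936 and 0.977) and ran from 1.01 to 1.05 in siDelta2-4. Shares in siControl 1 and 2 therefore run lower than CPM would. The narrow oligosaccharyltransferase separation is uncertain for this reason, and its most counted member, OST4, separated downward in CPM. The 6 most counted members (SSR4, OST4, SRP14, SEC61B, DAD1 and SEC61G) held 54.7% of the members' counts, and none of them was called.

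**Figure D3:**
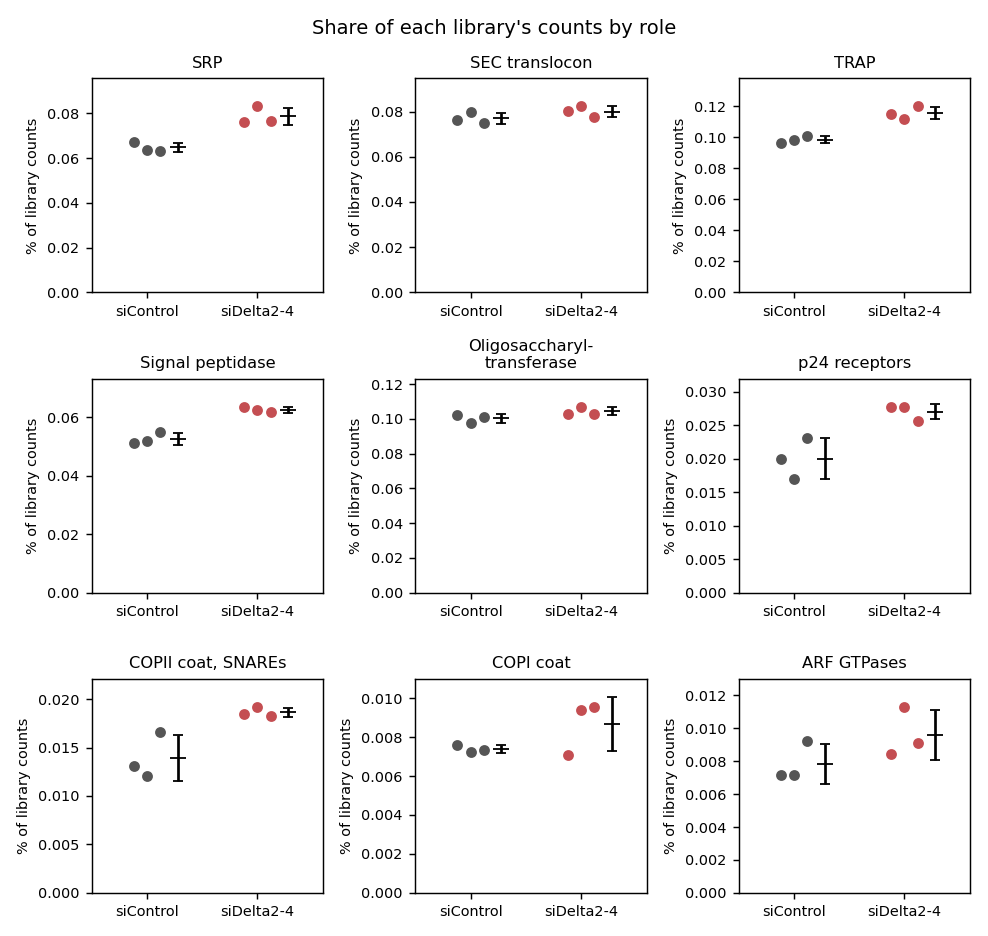
Share of each library's counts, in percent, taken by the members of each role (points are libraries, bars are means and SD, n = 3). The SRP, TRAP, signal peptidase, oligosaccharyltransferase, p24 and COPII panels separate the groups, from 0.0648% to 0.0786% on average for SRP, whereas the translocon, COPI and ARF panels overlap. Shares are of raw totals, before TMM adjustment, and the oligosaccharyltransferase separation is narrow and uncertain.

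The members differed in length, and length moved with the fold change across all genes. Tested members had a median transcript length of 1714 nt, against 1143 nt for all tested genes. Of the 5 tested members under 700 nt, 0 were called by edgeR and the median log2 fold change was -0.033, where all genes of that length had -0.12. Of the 29 longer members, 6 were called and the median was 0.20, where longer genes had a median of 0.084 and 8.09% were called higher. The called members ran from 1086 nt (SEC11A) to 4109 nt (TMED10). With a per-library trend on length removed, the median of the members was 0.087 and that of all genes -0.0090. SRP19, TMED10, SEC13 and SSR2 kept their calls, at log2 fold changes of 0.35, 0.52, 0.45 and 0.32, and SEC11A and DDOST lost theirs (adjusted p = 0.122 and 0.349).

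**Figure D4:**
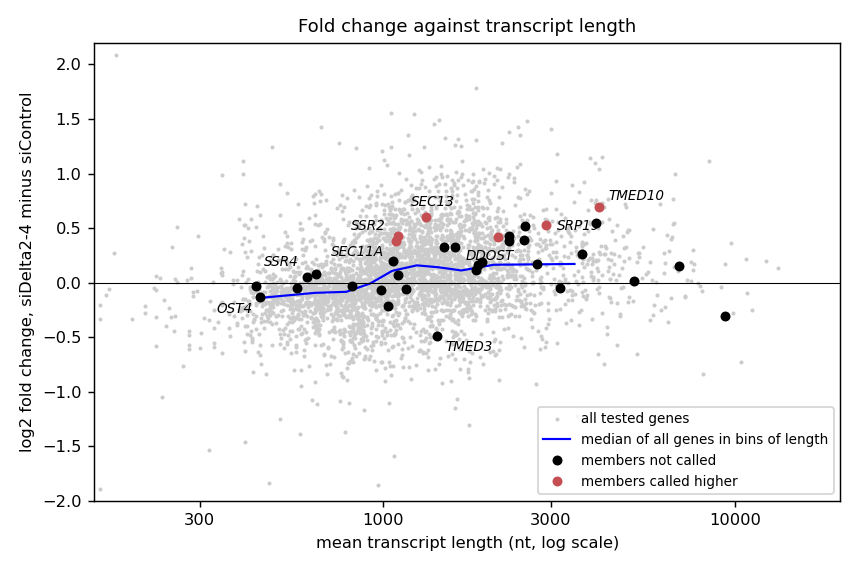
Log2 fold change against the mean length of each gene's transcript models (nt, log scale) for the members and for all tested genes with lengths within the axis. The blue line, the median of all genes in bins of equal gene number, rises with length, and the members called higher (red) sit above it at 1086 nt and longer.

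Calls also depended on single libraries. The number of members called ranged from 2 without siControl 2 to 9 without siControl 3, all higher. Calls over all genes moved alike, with 2.79% of genes called higher (5.52% in either direction) without siControl 2 and 13.5% (25.4% in either direction) without siControl 3. SRP19 and TMED10 kept their calls whichever library was left out. Without siControl 2, SEC13 (adjusted p = 0.142) and SSR2 (adjusted p = 0.133) lost theirs. SEC11A was lost without siControl 1 (adjusted p = 0.232), siControl 2 (0.128), siDelta2-4 1 (0.123) or siDelta2-4 3 (0.204). DDOST was kept only without siControl 3, and its adjusted p was 0.349 and 0.151 without siControl 1 and 2 and 0.148, 0.295 and 0.169 without siDelta2-4 1 to 3. In log2 CPM the median deviation of the members from their mean over libraries was -0.029, -0.14 and -0.057 in siControl 1 to 3 and 0.10, 0.10 and 0.075 in siDelta2-4 1 to 3. The lowest library for a member was siControl 2 in 10 of 34 cases.

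Long reads were counted per transcript model, so each gene's change could be followed to its models. Of 53 members' models tested, 6 were called higher and 0 lower (0 lower at an unadjusted p under 0.05), where 3.95% of all models were called higher and 2.97% lower. At the level of models, 36 of 53 had a log2 fold change above 0, with a median of 0.15 against 0.012 for all models. TMED10-201 (4109 nt), which held every count of its gene, had 49.1, 40.6 and 58.8 CPM in siControl and 90.9, 76.9 and 78.0 in siDelta2-4 (adjusted p = 0.0135). SSR2-201, SEC11A-201 and SEC13-202, which held 68.7%, 85.2% and 69.8% of the counts of their genes, were called as well (log2 fold changes 0.43, 0.39 and 0.51, adjusted p = 0.0280, 0.0629 and 0.0994). DDOST-201, with nearly all DDOST counts, missed the threshold (0.44, adjusted p = 0.123). SRP19 had 2 called models. The annotated SRP19-206 had 26.0, 26.1 and 18.6 CPM against 39.2, 38.0 and 53.0 (0.89, adjusted p = 0.0209), and an unannotated model, TALONT000741786, had 96.4, 94.6 and 91.1 CPM against 129, 144 and 119 (0.47, adjusted p = 0.0371). In both, every siDelta2-4 library was above every siControl library.

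Which model a gene used was tested for 15 members, and 0 passed in edgeR's usage test, where 0.618% of all genes tested did. At an unadjusted p under 0.05 there was 1 member, OST4 (adjusted p = 0.502), where 9.63% of all genes passed that limit. Its main model OST4-203 went from 97.4% to 96.3% of the gene's counts on average. Annotated models held 84.9% of the members' counts and 45.3% of all counts.

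Many members face another gene on the opposite strand, and no source used here says that the counting used strand, so reads of such a pair cannot be told apart. For 9 tested members the opposite gene had more than 0.5 times the member's counts. In all 9 pairs the most counted model of both genes had the same number of exons, but lengths were within 30 nt in only 5. Lengths differed more for SSR3 (4236 against 2240 nt for its partner), SEC61A2 (3194 against 1750), SEC22C (928 against 2697) and SEC61A1 (1755 against 1899). SEC11A-201 has 6 exons and 1079 nt, and the main model under the opposite lncRNA ENSG00000259654 had 6 exons and 1068 nt, although their annotated exons share 0 bases. SSR2-201 (6 exons, 1108 nt) faced a model of 6 exons and 1111 nt under ENSG00000285677, and OST4-203 (3 exons, 442 nt) faced a model of 3 exons and 442 nt under AGBL5. For SRP19 the resemblance ran the other way. Its unannotated model TALONT000741786 (5 exons, 3011 nt), with 74.9% of SRP19 counts, was close in shape to the annotated main model of REEP5 (5 exons, 3008 nt). The main models of SEC61A1, SEC61A2 and SEC22C were also unannotated, opposite RUVBL1, NUDT5 and SS18L2. The values of SRP19 and of these members are therefore uncertain.

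The opposite genes had log2 fold changes of the same sign as the called members. The log2 fold changes were 0.34 for ENSG00000285677 (adjusted p = 0.0937, called), 0.31 for ENSG00000259654 (adjusted p = 0.104) and 0.34 for REEP5 (adjusted p = 0.131), beside 0.43 for SSR2, 0.38 for SEC11A and 0.53 for SRP19. Summed over both strands, CPM did not overlap between groups for these 3 loci, nor for the uncalled SSR3 and SEC61A2 with their partners. The sums of ARF5, SEC61A1, SEC22C and OST4 with their partners overlapped. Each sum contains the member's own counts, so it is not a separate test. Among all tested genes, taken singly, 14.1% separated upward. SEC11A with its partner had 289, 294 and 362 against 395, 389 and 414, SSR2 with its partner 332, 289 and 388 against 421, 445 and 455, and SRP19 with REEP5 222, 230 and 185 against 300, 295 and 273. On annotated models alone the log2 fold change of SRP19 was 0.76, with an adjusted p of 0.0247. TMED10, SEC13 and DDOST overlapped no other counted gene of the annotation. Counted genes outside the annotation were not examined for overlap with any member, so reads shared with such a gene were not tested for these 3 either.

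Few members with the promoter letters could be tested, and no difference by these letters was tested. Of the 9 members with TGACGTGG, 4 were tested, and their log2 fold changes were 0.53 (SRP19, called), 0.26 (SSR3), 0.12 (ARF1) and 0.049 (SSR4). Among tested genes outside the members, 12 had the letters, 2 of these were called higher and 0 lower, and their median log2 fold change was 0.20, where 7.00% of all genes were called higher and the median was 0.027. The shorter ACGTG, which TGACGTGG contains, was in 34 of the 62 members' entries (54.8%) and in 21.4% of all entries. By gene it was in 28 of 48 members (58.3%), and 16 of these were tested. They included 4 of the 6 called members (SRP19, TMED10, SEC13 and DDOST). Of all tested members 17.6% were called. Among tested genes outside the members, 619 had ACGTG, 49 of these were called higher and 33 lower, and their median log2 fold change was 0.064. Over all genes 7.00% were called higher and 5.97% lower. CCAAT was in 26 of 62 (41.9%) and 34.6% of all entries, and CACGTG in 7 of 62 (11.3%) and 7.26%. Of the tested members, 17 had CCAAT and 2 of these were called, and 5 had CACGTG and 2 of these were called. Outside the members, 767 tested genes had CCAAT (57 called higher, 49 lower) and 223 had CACGTG (16 higher, 14 lower). The ER stress element ERSE (CCAAT, then any 9 bases, then CCACG) and ERSE-II were in 0 of the 62 entries and in 0.0769% and 0.0541% of all entries.

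Beyond the members, 95 other genes of the route were listed, of which 41 were tested. Overlap with an opposite gene was examined for the members alone, so reads shared with such a gene were not tested for these listed genes. By edgeR's test 7 were higher (17.1%, against 7.00% of all genes) and 0 lower, with a median log2 fold change of 0.18, against 0.027 over all genes. At an unadjusted p under 0.05, 12 passed (29.3%, against 23.1% of all genes), 3 of them lower. Among the subunits of the ER membrane protein complex (EMC), which inserts membrane proteins, 2 of 5 tested were higher. EMC6 had 9.75, 21.1 and 10.5 CPM in siControl and 40.3, 34.9 and 36.8 in siDelta2-4 (log2 fold change 1.42 ± 0.27, adjusted p = 0.00113), a larger change than in any tested member. EMC7 had 47.8, 58.5 and 58.4 CPM against 90.8, 81.3 and 81.3 (0.62 ± 0.16, adjusted p = 0.0139), and lost its call without siControl 1 (adjusted p = 0.102). Neither EMC gene overlapped between groups. OSTC, an oligosaccharyltransferase subunit outside the members, had 129, 131 and 133 CPM against 163, 187 and 223 (0.55 ± 0.12, adjusted p = 0.00543), and 1 of 3 tested genes of its list was called.

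HSPA5, the main ER chaperone (BiP), was the called gene among 6 tested ER folding genes. Its CPM was 13.6, 9.59 and 19.2 in siControl and 29.0, 35.8 and 29.2 in siDelta2-4 (1.14 ± 0.27, adjusted p = 0.00800). HSP90B1, the ER member of the HSP90 family, was at 4.87 and 4.79 CPM in siControl 1 and 2. In siControl 3 it was at 22.0, above every siDelta2-4 library (21.5, 20.3 and 19.2). HSP90B1 was not called (0.93, adjusted p = 0.133). CALR, PDIA4, PDIA6 and DNAJB11 had log2 fold changes of 0.10 to 0.31, none called.

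Of 6 tested cargo receptors, ERGIC2 (0.72 ± 0.25, adjusted p = 0.0706) and CNIH1 (0.39 ± 0.15, adjusted p = 0.0934) were called, and CNIH1 overlapped between groups. Of 9 tested tethers, Rabs and SNAREs, TRAPPC4 was called (0.40 ± 0.14, adjusted p = 0.0667). Without siControl 1, siControl 2 or siDelta2-4 2 each of these 3 lost its call, as did ERGIC2 and CNIH1 without siDelta2-4 1 and TRAPPC4 without siDelta2-4 3. The adjusted p then ran from 0.118 to 0.247 for ERGIC2, from 0.232 to 0.360 for CNIH1 and from 0.112 to 0.359 for TRAPPC4. The GET pathway for tail-anchored proteins (4 tested), the multipass translocon (3), other COPII genes (2), insertion factors and the SRP receptor (2) and COPI and ARF regulators (1) had 0 called. At an unadjusted p under 0.05, the genes of these lists that passed were 2 GET genes and 1 multipass gene, GET3 (-0.62, adjusted p = 0.106), CAMLG (0.67, adjusted p = 0.213) and TMEM147 (-0.47, adjusted p = 0.126), each named after its values were seen, and 23.1% of all genes passed that limit. Without a library, the number of called genes over all the pathway lists ran from 4 (without siControl 1, siControl 2 or siDelta2-4 2) to 13 (without siControl 3). Of all genes, 7.27, 5.52 and 4.85% were called in either direction without siControl 1, siControl 2 and siDelta2-4 2, and 25.4% without siControl 3.

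**Figure D5:**
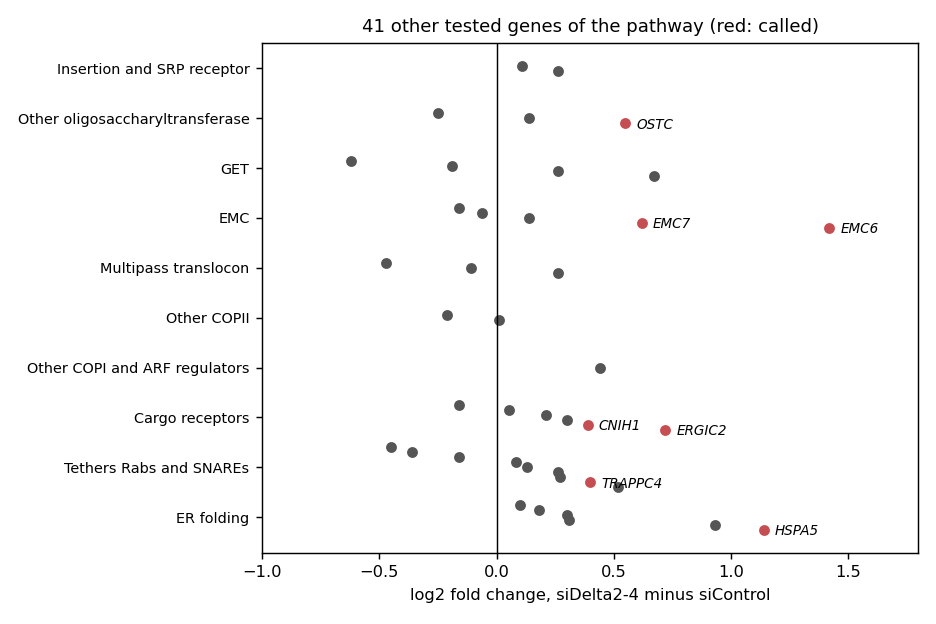
Log2 fold changes (siDelta2-4 minus siControl) of the 41 tested genes of the route outside the members, by list, each point a gene and red points called. The 7 called genes are all to the right of 0, with EMC6 at 1.42 and HSPA5 at 1.14 farthest out.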

How the data were processed

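PolyA RNA had been made into barcoded PCR-cDNA libraries, which the authors ran for 72 h on a shared flow cell. According to the submitters' processing notes and the published methods, alignment to GRCh38.p14 used minimap2 2.14 and SAMtools 1.13, TranscriptClean corrected the reads, and TALON assigned them to Gencode 44 models or to unannotated ones, which needed 5 reads in 3 samples. The deposited values are raw counts per transcript model, not normalised. PCR copies were not collapsed by molecular identifiers as far as the sources say, and counting intervals would cover counting error only.

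Counts were summed per gene, and the 8168 annotated genes matched Gencode 44 by identifier and version. Groups came from the labels, and the 6 columns were matched to groups by the siRNA in their names. Genes, models and model usage (diffSpliceDGE) were tested over the whole table with edgeR 4.0.16 under R 4.3.3 (TMM factors, low counts removed by filterByExpr, quasi-likelihood fit, no covariate, two-sided, Benjamini-Hochberg adjustment, called at adjusted p under 0.1). SE values were derived as the absolute fold change on the log2 scale over the root of F. The scripts were tested on simulated counts. Members follow a rule on symbols, read so that SRP9 to SRP72 stay and 2 processed copies (SRP9P1, SPCS2P4) are left out. Values per library are given for called members, members whose CPM does not overlap between groups and the most counted member of each role, and other members by count or fold change. Members, lists, marker genes and motifs were chosen with earlier results of these data known. Alternatives were DESeq2 1.42.0, its size factors, library totals, other count filters (none, or 10 counts in every library), adjusted p under 0.05, annotated models alone, a loess trend on length (span 0.4), a block on the column number and each library left out.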

Additional observations from a re-analysis of the deposited data

How the results depend on the processing

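Across all alternatives, no call reversed. The median of the members fell below that of all genes without a filter and with the DESeq2 Wald test. Both of these fits took in genes of low counts. In the other fits the members' median stayed above that of all genes. SRP19 and TMED10 kept their calls in all 14 alternative fits, SEC13 and SSR2 in all but 1, SEC11A in all but 6 and DDOST in 3. The 6 members called became 5 with DESeq2 size factors, without a filter, under the column-number block, on annotated models alone or at an adjusted p under 0.05, 9 with library totals or with 10 counts in every library, 4 with the DESeq2 Wald test or with the length trend removed, and 2 to 9 when a library was left out. Members called lower stayed at 0 by all of these. The members tested were 34 in the main fit, 29 on annotated models alone and 31 with 10 counts in every library. Over all genes the 504 calls became 299 under the block, 279 with the DESeq2 Wald test, 252 on annotated models alone, 304 at an adjusted p under 0.05 and 194 to 1041 when a library was left out. Their split of 272 higher and 232 lower became 357 and 158 with library totals, 194 and 283 with the length trend removed and 78 and 201 with the DESeq2 Wald test. The 6 called models of members became 2 without a filter or with the DESeq2 Wald test, and 1 to 11 when a library was left out. The 7 calls in the pathway lists became 4 under the block or at an adjusted p under 0.05, and 4 to 13 when a library was left out. With the DESeq2 Wald test they became 2. There CNIH1 and TRAPPC4 lost their calls, while HSPA5, EMC6 and ERGIC2 had no adjusted p and were not counted. Beside calls that moved, the cause was not tested. The column numbers do not pair the libraries (correlations of same-numbered deviations 0.039, -0.136 and -0.0843), so the block is a check of fit alone. Depth limits the large coat subunits and the SRP54, SRP68 and SRP72 genes, which had too few counts for a test.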
